A study of Danio rerio with 14 samples.

Results

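The peaks described here are the H2A.Z consensus peaks that lie in the outermost megabase at either end of the assembled zebrafish chromosomes. A peak was taken as terminal if it ended at or below 1 Mb, or started within 1 Mb of the largest peak end on its chromosome in the same table. The right end of a chromosome is thus its last peak, and the distance of that peak from the end is 0 by definition. Peaks of chromosome 4 from 25 Mb on, in its repeat-rich long arm, were left out of both sets. The other peaks of the same chromosomes are called interior. The comparison of 5-AzaC with DMSO held 1594 terminal peaks at 49 chromosome ends and 22496 interior peaks, out of 29854 consensus peaks in all. The comparison of TDCIPP with DMSO held 1536 terminal and 21773 interior peaks out of 28988.

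CUT&Tag for H2A.Z used about 10000 cells a library. In this assay an antibody brings a transposase to the histone, and the enzyme inserts sequencing adapters nearby. Wild-type AB/Tuebingen embryos, around 50 to a well, were collected at 6 hours after fertilization. The groups were 3 control samples in 0.1% DMSO, 3 samples in 100 µM 5-AzaC (5-azacytidine, a nucleoside analogue that lowers DNA methylation) from the 1-cell stage, and 2 samples in 3.12 µM TDCIPP (an organophosphate flame retardant) from 0.75 hours. The libraries come from whole embryos, so a level averages over all of their cells, and the labels do not say whether the samples of a group came from separate clutches. A further 6 of the 14 samples, from embryos overexpressing H2A.Z, were not analysed here.

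H2A.Z is a variant of histone H2A that replaces it in some nucleosomes, often at gene starts and enhancers. In early zebrafish embryos, nucleosomes that carry H2A.Z are known to mark DNA that stays free of DNA methylation before and while the embryo's own genome is switched on. Chromosome ends carry telomere repeats and, inside them, subtelomeric DNA, which is often rich in repeats and, in male zebrafish, is where meiotic recombination concentrates.

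The values are those of the authors' deposited tables, 1 for each treatment. A level is the log2 of the mean normalised read count of a peak in a group, and a change is the treated level minus the DMSO level. Values of single samples are not in these tables, so no SD can be given, and sequencing depth per library is unknown. The spread between samples enters only through the deposited p-values and FDRs. A peak is called lower or higher at a deposited FDR under 0.05. Medians and shares over peaks are descriptions without a test, because neighbouring peaks are not replicates, and no difference between terminal and interior peaks was tested. Both comparisons share the DMSO samples: the DMSO level was equal in all 274 terminal peaks with identical coordinates in both tables.

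The consensus peaks were packed more densely near chromosome ends than elsewhere, and their median DMSO level and median width were higher. Density, gaps, coverage and width describe the consensus peaks of each table, not peaks of the DMSO samples alone. The terminal windows made up 3.79% of the chromosome length considered and held 6.62% of the peaks of the 5-AzaC table. Their density was 32.5 peaks per Mb, against 18.1 per Mb in the interior. In the TDCIPP table the densities were 31.3 and 17.5 per Mb. The median gap between neighbouring peaks was 17.0 kb in the terminal windows and 29.3 kb in the interior (5-AzaC table). Peaks covered 3.15% of the terminal windows and 1.60% of the interior.

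The density fell off with distance from the end over the whole window. It was 55.9 peaks per Mb within 100 kb of an end, 39.6 from 100 to 250 kb, 33.9 from 0.25 to 0.5 Mb and 25.1 from 0.5 to 1 Mb in the 5-AzaC table. Between 1 and 2 Mb it was 20.4 per Mb, and beyond 5 Mb it was 18.0. The last peak defines the right end, which adds to the right-hand count by construction. The left ends alone gave 52.4 per Mb within 100 kb and 25.5 per Mb from 0.5 to 1 Mb.

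The DMSO level was also higher toward the ends, though not in step with density at every distance. Its median was 4.15 in terminal peaks (quartiles 3.18 and 5.02) and 3.68 in interior peaks (2.83 and 4.5) of the 5-AzaC table. In the TDCIPP table the medians were 4.21 and 3.69. Moving inward, the median level in the 5-AzaC table was 4.52 from 100 to 250 kb, 4.16 from 0.25 to 0.5 Mb, 3.81 from 0.5 to 1 Mb, 3.55 from 2 to 5 Mb and 3.70 beyond 5 Mb. At the left ends it was 4.99 within 100 kb and 4.52 from 100 to 250 kb. At the right ends the outermost value was the lower one, 4.25 against 4.52 (4.45 against 4.53 in the TDCIPP table). Terminal peaks were also wider, with a median of 854 bp against 786 bp. Per kilobase of peak, the median DMSO level was 4.40 in terminal and 4.04 in interior peaks on the log2 scale.

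**Figure D1:**
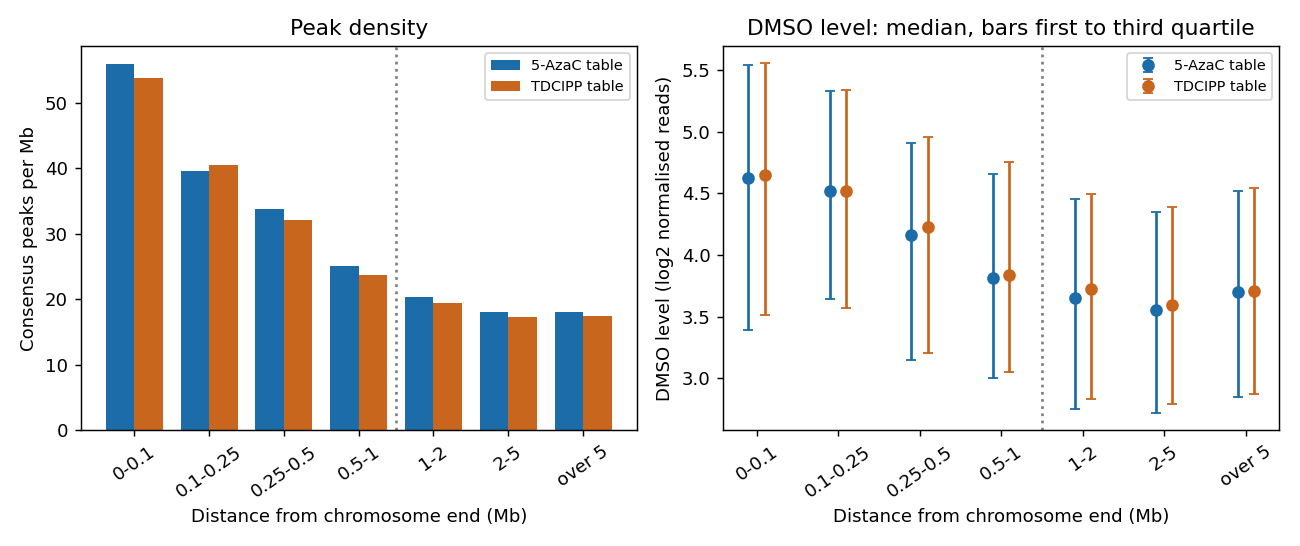
Peak density in peaks per Mb (left) and DMSO level in log2 normalised reads (right, median with bars from the first to the third quartile) in bins of distance from the chromosome end, for the peaks of both tables. The dotted line marks the 1 Mb edge of the terminal window: density declines from 55.9 peaks per Mb in the outermost bin to 25.1 in the last terminal bin of the 5-AzaC table.

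Strong and wide peaks made up a larger share at the ends than in the interior. A DMSO level of 6 or more was found in 121 terminal peaks (7.59%) and in 2.34% of interior peaks of the 5-AzaC table. A width of 2 kb or more was found in 4.14% and 2.25%. At the window's edge the median level was somewhat higher just outside than just inside. The 113 peaks from 900 kb to 1 Mb had a median DMSO level of 3.71 and a median change of -0.61, and the 93 peaks from 1 to 1.1 Mb had 3.92 and -0.69. In the TDCIPP table these medians were 3.825 and -0.66 inside, and 3.95 and -0.56 outside.

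The pattern held over most chromosomes. Ends held between 17 and 47 terminal peaks, with a median of 31, in the 5-AzaC table. The left end of chromosome 22 held the most, 47 (50 in the TDCIPP table). The left end of chromosome 17 held the fewest in the 5-AzaC table, 17, and the right end of chromosome 14 the fewest in the TDCIPP table, also 17. The median DMSO level of an end was above that of its own chromosome's interior at 45 of 49 ends in the 5-AzaC table and at 46 of 49 in the TDCIPP table. Per kilobase of peak it was above at 43 of 49 ends in each table. Interior medians spanned 3.51 to 3.78, and the medians of ends ran from 3.26, at the left end of chromosome 16, to 4.74. Each end holds far fewer peaks than an interior, so its median varies more. The other ends below their interior in the 5-AzaC table were the left ends of chromosomes 3 and 7 and the right end of chromosome 9.

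**Figure D2:**
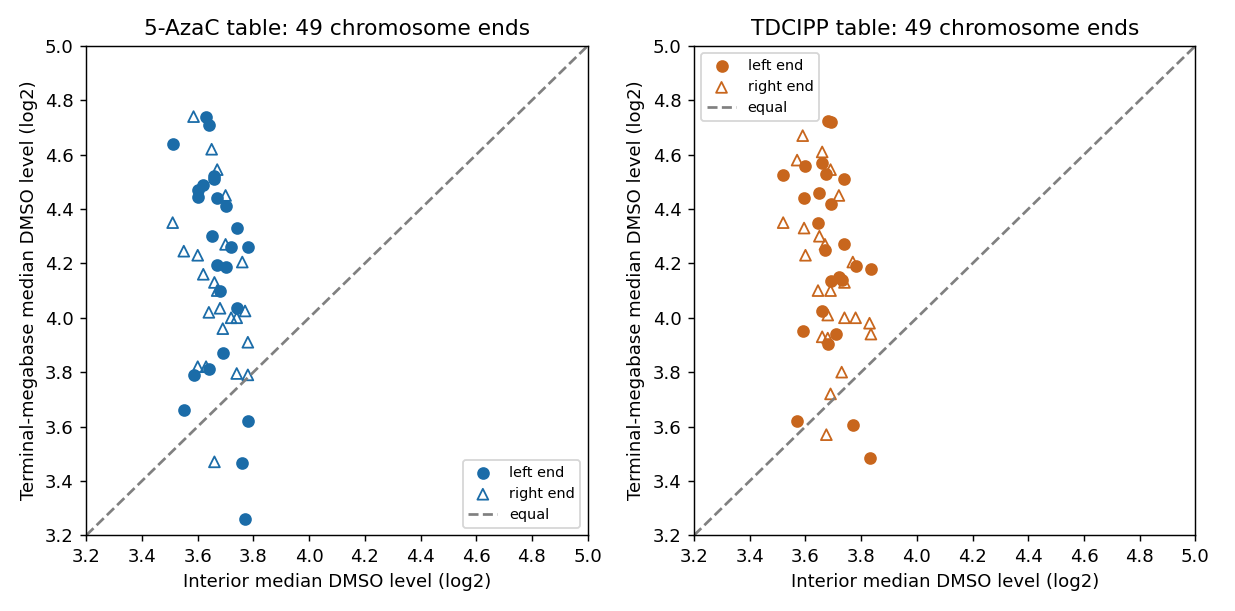
Median DMSO level (log2 normalised reads) of the terminal peaks of each chromosome end against the interior median of the same chromosome, with filled circles for left ends and open triangles for right ends. Above the dashed line of equal levels lie 45 of 49 ends for 5-AzaC (left) and 46 of 49 for TDCIPP (right).

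The 5 strongest terminal peaks lay close to the ends. Of the 121 terminal peaks with a DMSO level of 6 or more in the 5-AzaC table, 43 lay within 100 kb of an end. Of all 1594 terminal peaks, 274 lay there. The peak with the highest DMSO level, on chromosome 17 from 53383511 to 53384903 and 75.1 kb from the right end, had a level of 9.34 in the authors' deposited table. It was the one among the 5 strongest that was not called in either comparison. Its level was 9.42 after 5-AzaC and 9.42 after TDCIPP, a change of 0.08 in both of the authors' deposited tables (FDR 0.707 and 0.820). Next came the left end of chromosome 10, with 3340 bp between 74092 and 77432. In the authors' deposited table its level was 7.81 in DMSO and 6.95 after 5-AzaC, a change of -0.86 (FDR 0.00753), and the matching TDCIPP peak changed by -0.93 (FDR 0.0415).

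The third spanned 3068 bp of chromosome 13 (88737 to 91805). In the authors' deposited table it fell from 7.63 to 6.35 after 5-AzaC (FDR 0.00109), and the matching peak fell from 7.66 to 6.45 after TDCIPP (FDR 0.0107). All 5 of the strongest lay within 100 kb of an end. The other two, on chromosomes 22 and 11, were called lower after 5-AzaC with changes of -1.20 and -0.97 in the authors' deposited table. After TDCIPP they had changes of -0.86 (FDR 0.281, not called) and -0.99 (FDR 0.0431).

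After 5-AzaC, deposited levels at chromosome ends were mostly lower than in DMSO, by about as much as elsewhere. The scaling is not given, so in either comparison a shift common to all peaks cannot be told apart from it. The signs of changes, and the balance of lower and higher calls, depend on that shift. The median change of terminal peaks was -0.63 (quartiles -0.94 and -0.25), beside -0.69 for interior peaks and -0.70 for all peaks of the table. The change was below 0 in 85.2% of terminal peaks and 86.2% of interior peaks. Relative to the median of all peaks, the median terminal peak lay at 0.07. Summed over peaks on the linear scale, the signal after 5-AzaC was 0.653 of the DMSO signal at the ends and 0.654 in the interior. The covered length was 1544 kb at the ends, where the mean linear level per peak was 25.3 in DMSO and 16.5 after 5-AzaC. Over these peaks the terminal share of the summed signal was 8.90% in DMSO and 8.89% after 5-AzaC.

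Of the 1594 terminal peaks, 246 (15.4%) were called lower after 5-AzaC and 4 (0.251%) higher, 15.7% in all. Over all peaks of the table, 12.5% were called lower and 0.301% higher, 12.8% in all. The deposited FDR was 1 in 328 terminal peaks, which could not be called. Among peaks with an FDR under 1, lower calls made up 19.4% of terminal peaks and 18.7% of all peaks, and higher calls 0.316% and 0.45%. These shares were near each other. Lower calls occurred at all 49 ends. Interior windows of the same size were not counted, so this number of ends has no base beside it. The changes of the lower calls ranged from -2.61 to -0.73. All 246 also lay below the median change of the table. The smallest of these decreases, -0.73, was close to that median, -0.70. No peak was tested against the median.

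TDCIPP gave a similar picture by medians, whereas its summed signal fell more at the ends than in the interior. The median change of terminal peaks was -0.55 (quartiles -0.96 and -0.02), beside -0.57 in the interior and -0.53 over all peaks. It was -0.02 relative to the latter. The change was below 0 in 75.8% of terminal and 73.9% of interior peaks. Of 1536 terminal peaks, 118 (7.68%) were called lower and 16 (1.04%) higher, 8.72% in all. Lower calls occurred at 41 of the 49 ends, again without a count over interior windows beside it. Over all peaks of the table, 5.81% were lower and 1.21% higher, 7.03% in all. Among peaks with an FDR under 1, lower calls were 10.5% of terminal peaks and 9.81% of all peaks, and higher calls 1.43% and 2.05%. The summed signal after TDCIPP was 0.705 of that in DMSO at the ends and 0.762 in the interior. A linear sum gives the strongest peaks the most weight. By median change the strongest peaks went the other way, with -0.78 at the ends and -0.90 in the interior (groups by DMSO level, below). The mean linear level of a terminal peak was 25.8 in DMSO and 18.2 after TDCIPP, over 1480 kb covered. The terminal share of the signal was 8.95% in DMSO and 8.34% after TDCIPP.

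**Figure D3:**
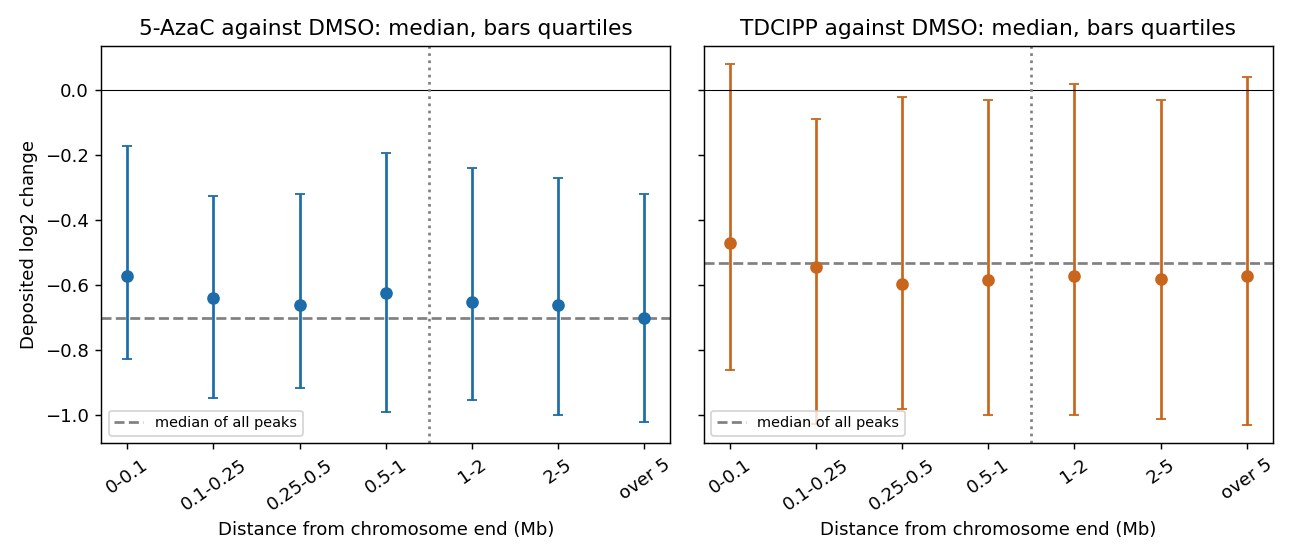
Deposited log2 change against DMSO in bins of distance from the chromosome end (median, with bars from the first to the third quartile) after 5-AzaC (left) and TDCIPP (right). The median is nearest to 0 in the outermost 100 kb, at -0.57 and -0.47, and the dashed line marks the median of all peaks at -0.70 and -0.53.

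Terminal peaks were stronger, and in both tables the change varied with level, so terminal and interior peaks were also set side by side within 5 equal groups of peaks by DMSO level. The strongest group held 32.8% of terminal and 19.0% of interior peaks of the 5-AzaC table. In each of the 5 groups of both tables the terminal median was the higher one. From the weakest to the strongest group, the terminal median minus the interior median was 0.31, 0.175, 0.165, 0.13 and 0.11 for 5-AzaC. For TDCIPP it was 0.255, 0.10, 0.18, 0.15 and 0.12. In the strongest group the medians were -0.80 at the ends and -0.91 in the interior after 5-AzaC, and -0.78 and -0.90 after TDCIPP. The DMSO level is also part of the change, and grouping by the mean level gave gaps between 0.09 and 0.265 in the same direction. These gaps are smaller than the spread of changes among terminal peaks.

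Within the strongest group the share of called peaks was also set beside the interior. After 5-AzaC, 38.2% of its terminal peaks and 46.2% of its interior peaks were called lower, and after TDCIPP 18.5% and 24.3%. Higher calls after TDCIPP made up 2.67% of its interior peaks and 0 of its 508 terminal peaks (0 also at an unadjusted deposited p under 0.05). In the other 4 groups the terminal share was the larger one, but it rested on only 7, 4, 3 and 2 terminal peaks. From the weakest group up, the shares were 3.37% against 1.03%, 1.59% against 0.808%, 1.27% against 0.681% and 0.602% against 0.485%. Grouped by mean level instead, the strongest group held 5 terminal higher calls, 0.943% against 3.63% in the interior. The other groups by mean level, from the weakest up, had 0 against 0, 0 against 0.0458%, 3.36% against 0.947% and 0.649% against 1.14%. By mean level the terminal share was thus the larger one only in the middle group. All 16 terminal peaks called higher after TDCIPP had a DMSO level of at most 4.47.

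**Figure D4:**
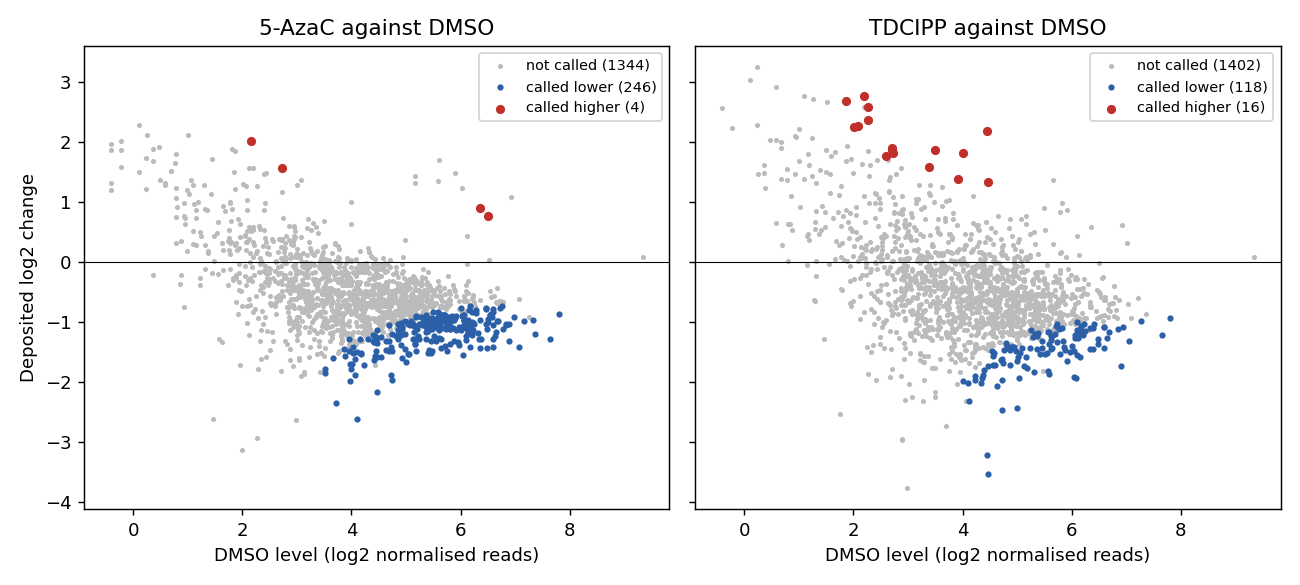
Deposited log2 change of each terminal peak against its DMSO level (log2 normalised reads) after 5-AzaC (left) and TDCIPP (right), with grey points not called, blue points called lower and red points called higher. Lower calls start at a DMSO level of 3.51 for 5-AzaC and 4.0 for TDCIPP, and higher calls of TDCIPP end at 4.47.

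The 4 terminal peaks called higher after 5-AzaC all lay within 25 kb of a chromosome end as defined here, at 4 different ends. For the 2 at right ends the distance runs to the last peak, which on chromosome 20 is the called peak itself. The largest called increase was at the right end of chromosome 22, from 39122374 to 39122975. In the authors' deposited table its level was 2.15 in DMSO and 4.16 after 5-AzaC, a change of 2.01 (FDR 0.0142). The matching peak had a change of 1.63 after TDCIPP, with a deposited FDR of 1. On chromosome 13, a 444 bp peak from 24523 to 24967 rose from 2.72 to 4.29 in the authors' deposited table, a change of 1.56 (FDR 0.0355). It was the one of the 4 also called after TDCIPP, where the authors' deposited table gave a change of 1.81 (FDR 0.0462).

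The other two were already strong in control embryos. The last peak of chromosome 20, from 55167752 to 55169773, rose from 6.36 to 7.26 in the authors' deposited table, a change of 0.90 (FDR 0.0316). At the left end of chromosome 7, a peak from 7502 to 8637 rose from 6.50 to 7.26 in the authors' deposited table (FDR 0.0435). Their changes after TDCIPP were 0.59 (FDR 0.502) and 0.32 (FDR 0.560) in the authors' deposited table. Within 100 kb of an end, higher calls after 5-AzaC made up 1.46% of 274 peaks, beside 0.301% of all peaks of the table. From 100 kb to 2 Mb there were 0, from 2 to 5 Mb 3 and beyond 5 Mb 56 (0.297%). At an unadjusted deposited p under 0.05, 12 peaks between 100 kb and 2 Mb were higher, in bins of 291, 415, 614 and 1000 peaks. With Benjamini-Hochberg adjustment of the deposited p-values over all peaks, 2 terminal peaks were called higher. Shares over all peaks under these settings were not worked out, so neither count can be set beside a base. The distances were compared after the values were seen.

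**Figure D5:**
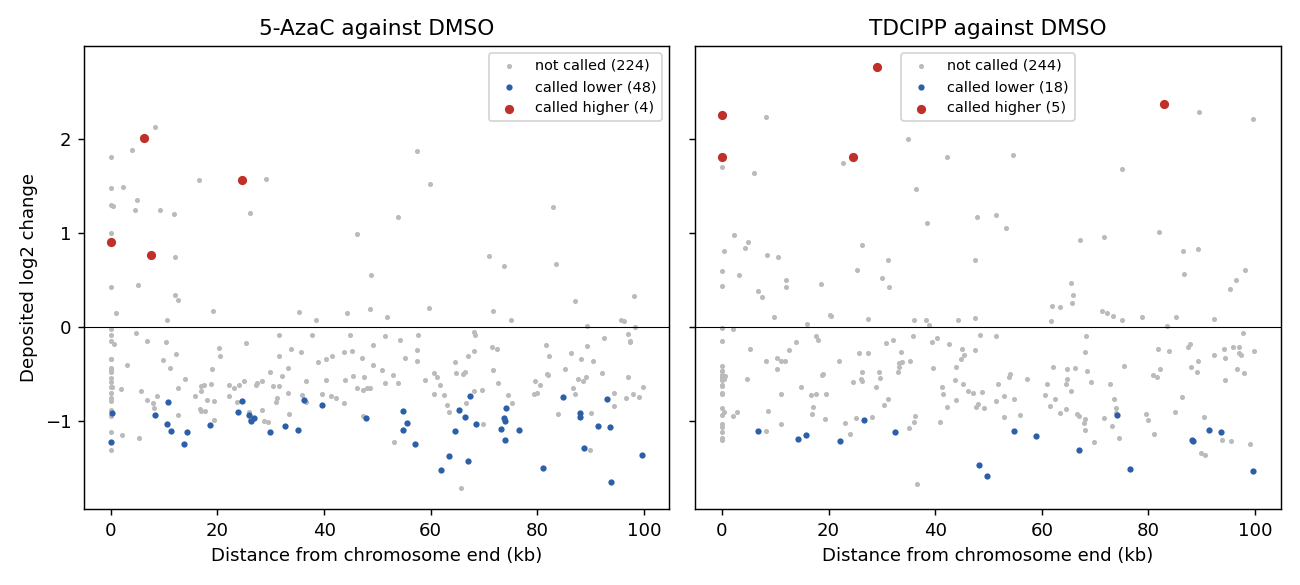
Deposited log2 change of terminal peaks within 100 kb of a chromosome end against the distance of their near edge from that end (kb), after 5-AzaC (left) and TDCIPP (right), with called peaks in colour. Points at 0 kb on the x axis include the last peak of each right end, and the 4 higher calls of 5-AzaC lie between 0 and 24.5 kb.

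The peaks closest to the left ends had a median change nearer to 0 than those further in, with wide quartiles. Within 10 kb of the left ends, 21 peaks on 13 chromosomes had a median change of -0.18 after 5-AzaC (quartiles -0.73 and 1.00), and 8 of them were above 0. Of these 8, 3 formed a single run at the left end of chromosome 7. After TDCIPP, 19 peaks within the same distance had a median of -0.02, with 9 above 0. From 10 to 25 kb the medians were -0.61 after 5-AzaC and -0.33 after TDCIPP, and from 25 to 50 kb -0.565 and -0.51. From 50 to 100 kb the medians were -0.57 (57 peaks, quartiles -0.90 and -0.28, 5 above 0) and -0.53 (63 peaks, 17 above 0). After 5-AzaC a median nearer to 0 was thus limited to the outermost 10 kb. Taking the single outermost peak of each end, 11 of 49 (22.4%) were above 0 after 5-AzaC, beside 14.2% of all peaks on the assembled chromosomes. After TDCIPP the shares were close: 13 of 49 (26.5%) beside 26.5%.

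The 5 left ends with a peak closest to the chromosome start did not move together. On chromosome 2, a peak from 16 to 417 had in the authors' deposited tables a level of 2.02 in DMSO, 3.33 after 5-AzaC (FDR 1) and 4.27 after TDCIPP, a change of 2.25 (FDR 0.0460). On chromosome 10, a peak starting at 23 had in the authors' deposited tables levels of 4.0, 5.0 and 5.80 in DMSO, 5-AzaC and TDCIPP. Its change of 1.81 after TDCIPP was called (FDR 0.00607), and that of 1.00 after 5-AzaC was not (FDR 0.0688). The peak from 268 to 1905 on chromosome 8 went the other way, from 6.58 in DMSO to 5.67 after 5-AzaC in the authors' deposited table (FDR 0.0428). On chromosomes 22 and 24 the changes after 5-AzaC were -0.64 and 1.29 in the authors' deposited table and were not called.

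The 16 terminal peaks called higher after TDCIPP lay on 11 chromosomes. Within 100 kb of an end lay 5 of them, 1.89% of 264 peaks, beside 1.21% of all peaks called higher. Most of the 16 were weak in control embryos: 10 had a DMSO level under 3, where the first quartile of all terminal peaks was 3.23. Choosing peaks by a high change favours a low DMSO level, because that level is subtracted in the change. The largest called increase was at the right end of chromosome 6 from 60191318 to 60192055, from 2.20 in DMSO to 4.96 in the authors' deposited table, a change of 2.76 (FDR 0.00283). Its 5-AzaC counterpart had a change of 1.57 (FDR 0.0691, not called). A second peak, at the left end of the same chromosome from 82995 to 83734, rose from 2.27 to 4.64 in the authors' deposited table (FDR 0.00737). On chromosome 16, a 392 bp peak from 54867473 to 54867865 rose from 1.86 to 4.56 in the authors' deposited table, a change of 2.69 (FDR 0.0147). The other two of the 5 largest called increases lay on chromosomes 25 and 1, with changes of 2.58 and 2.26 in the authors' deposited table.

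Among called peaks, the largest decrease after 5-AzaC was on chromosome 2 from 205435 to 206063, from 4.11 in DMSO to 1.5, a change of -2.61 in the authors' deposited table (FDR 0.00382). The same peak fell to 1.80 after TDCIPP, a change of -2.31 in the authors' deposited table (FDR 0.0168). After TDCIPP the largest called decrease was on chromosome 21 from 45502880 to 45503741, from 4.46 to 0.93, a change of -3.54 in the authors' deposited table (FDR 0.000376). It was also among the 5 largest called after 5-AzaC, where it fell to 2.30, a change of -2.16 in the authors' deposited table (FDR 0.00722). On chromosome 20, a peak from 896481 to 897100 had a change of -3.22 after TDCIPP in the authors' deposited table (FDR 0.00288). The overlapping 5-AzaC peak had -1.71 and was not called (FDR 0.0900). For each of these peaks both changes subtract the same DMSO level, and choosing by a large decrease favours a high one. The falls in both comparisons are thus not independent. More negative changes at weak peaks were not called: 4 terminal peaks of the 5-AzaC table lay below -2.61, down to -3.14, and 1 of the TDCIPP table was at -3.77. All 5 had a DMSO level of at most 2.99 and a deposited FDR of 1.

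Most called terminal peaks were lower in each comparison, 246 of 250 after 5-AzaC and 118 of 134 after TDCIPP. The same held over all peaks, with 3739 of 3829 called peaks lower after 5-AzaC and 1685 of 2037 after TDCIPP. Among terminal peaks called in the same direction by both comparisons, the 5 with the lowest FDRs were likewise all lower. On chromosome 3 this was a stretch of 1382 bp (430478 to 431860) with a DMSO level of 6.04. The authors' deposited tables put it at 4.49 after 5-AzaC (FDR 0.00200), and at 4.13 with TDCIPP (FDR 0.000667). On chromosome 21, 2125 bp between 168530 and 170655 fell from 6.88 to 5.56 after 5-AzaC in the authors' deposited table (FDR 0.00225). On chromosome 12, a peak of 1117 bp (989084 to 990201), near the inner edge of the window, fell from 4.73 to 2.85 after 5-AzaC and to 2.27 after TDCIPP in the authors' deposited tables (FDR 0.00409 and 0.00177). On chromosome 7, a peak of 2130 bp (67055 to 69185), with a DMSO level of 7.07, had changes of -1.42 and -1.31 in the authors' deposited tables (FDR 0.000639 and 0.00619). The shared DMSO libraries enter both changes of each peak.

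Chromosome ends differed in their median change. After 5-AzaC the medians ran from -1.05 at the left end of chromosome 15 (23 peaks, 6 lower) to -0.27 at the left ends of chromosomes 5 (30 peaks) and 7 (25 peaks), with all 49 below 0. Interior medians ran only from -0.72 to -0.61. The median of an end was above that of its own interior at 35 of 49 ends after 5-AzaC, and at 27 of 49 after TDCIPP. After TDCIPP the lowest medians, -0.90, were at the left end of chromosome 2 and the right end of chromosome 18. The right end of chromosome 3 was the one end with a median above 0, where 19 of 34 peaks were above 0 and none of the 34 was called. Each end holds far fewer peaks than an interior.

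Both ends with the highest median after 5-AzaC held runs of strong peaks with large changes that mostly were not called. On chromosome 5, 4 peaks between 815122 and 836636 had DMSO levels from 5.17 to 6.92 and changes from 1.08 to 1.70 in the authors' deposited table. Their FDRs lay between 0.126 and 0.271. In the TDCIPP table, 5 peaks of the same stretch had changes from 0.62 to 1.37 and FDRs from 0.387 to 0.707. On chromosome 7, the 3 peaks between 2199 and 8637 had changes of 1.49, 1.24 and 0.77 in the authors' deposited table, of which only the last was called. In all, 7 terminal peaks of the 5-AzaC table had a DMSO level of at least 5 and a change of at least 1, and 0 of the 7 were called (0 also at an unadjusted deposited p under 0.05). Terminal peaks of that strength called lower had changes down to a size of 0.73. Interior peaks with the same level and change were not counted, so the 7 have no base beside them. These runs were picked out after their values were seen, and the spread of their values between samples cannot be read from the tables.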

How the data were processed

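H2A.Z CUT&Tag libraries of zebrafish embryos were compared from 2 deposited tables. The submitters' processing notes name Bowtie2, Picard, MACS2, deepTools, DiffBind and the genome build GRCz11, without versions or roles. Per the file headers, the authors gave each consensus peak log2 levels over all samples and per group, a log2 change, a p-value and an FDR. The scaling and the test are not given in the sources used here, so a shift common to all peaks cannot be told apart from scaling, and the columns are read as the DiffBind format has them. Whether starts count from 0 or 1 is not given either.

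The deposited log2 change equals the treated minus the DMSO level to within 0.01. No count model could be fitted, so calls use the deposited FDR under 0.05 as set in the design. Python 3.11.15, pandas 2.3.3 and numpy 2.4.6 were used. Placement and adjustment were tested on simulated data. Bins use the far edge of a peak, named distances and the stretches of the left ends its near edge. Peaks were matched between tables by the largest shared length, with a minimum of 1 bp. Matches covered 89.6% of terminal peaks of the 5-AzaC table and 92.8% of those of TDCIPP. The right ends of chromosomes differed between the tables by at most 28.6 kb.

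Named peaks were the 5 largest called increases and decreases, the 5 highest DMSO levels, the 5 outermost peaks of left ends, the 5 shared calls with the smallest larger FDR, and ends with extreme counts or medians. The members and lists were chosen with earlier results of these data known. No sequence or gene annotation of GRCz11 was used here, so peaks carry no gene names.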

Additional observations from a re-analysis of the deposited data

How the results depend on the processing

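No paired analysis was possible because the tables hold 1 value per group, and leaving out replicates was not run for the same reason. Reference chromosome lengths and gene starts were not used, so these alternatives were not run. 5 groups by mean level, left ends only, the chromosome 4 long arm among interior peaks and peaks with an FDR under 1 were added after seeing the data. Of 112 values under alternatives, 55 stayed within their interval (95% order-statistic interval of a median, over peaks) or within 1.5 times a count. That interval treats peaks as independent, which neighbouring peaks are not, so it is a yardstick and not a test. For terminal minus interior values it is the terminal interval shifted by the interior median.

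Windows of 0.5 and 2 Mb held 980 and 2594 terminal peaks in the 5-AzaC table (956 and 2486 for TDCIPP). Their median DMSO levels were 4.39 and 3.94 (4.415 and 3.97), 0.71 and 0.26 above the interior (0.715 and 0.28). Median widths were 887.5 and 821 bp for 5-AzaC and 813 bp at 2 Mb for TDCIPP, whose left ends alone gave 880.5 bp.

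At an FDR under 0.01, calls were 55 lower and 0 higher for 5-AzaC and 20 and 3 for TDCIPP. At 0.1 they were 423 lower and 12 higher for 5-AzaC and 222 lower for TDCIPP. Benjamini-Hochberg over all peaks left 2 higher for 5-AzaC and 66 lower for TDCIPP, and a change of at least 1 left 2 higher for 5-AzaC. At an unadjusted deposited p under 0.05, 22 terminal peaks were higher after 5-AzaC. Shares over all peaks were not worked out for these settings. The counts thus show how terminal calls vary with the threshold, not how terminal peaks compare with others.

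Relative to the median of all peaks, the median change was 0.07 for 5-AzaC, of opposite sign, and -0.02 for TDCIPP. This follows from subtracting that median. Above the median level it was -0.71 and -0.635, or 0.09 and 0.075 above the interior. It was -0.59 for 5-AzaC with each end counted once (0.10 above the interior), and over peaks with an FDR under 1 -0.685 and, for TDCIPP, -0.62 (0.07 above). In the 5 groups by DMSO level, members lay above the interior by 0.31, 0.175, 0.165, 0.13 and 0.11 for 5-AzaC and by 0.255, 0.10, 0.18, 0.15 and 0.12 for TDCIPP. In those by mean level these were 0.265, 0.11, 0.18, 0.11 and 0.11, and 0.225, 0.12, 0.13, 0.09 and 0.095. The cause was not tested.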
